A study of Mus musculus with 4 samples.

Results

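Proteasome subunit genes, taken as the protein-coding mouse genes whose symbol begins with Psm, a letter from a to g and a digit, numbered 51 of 21887 protein-coding genes of the assigned chromosomes in RefSeq (GRCm38.p6, the patch release that corresponds to mm10). They were described in ATAC-seq, an assay in which a transposase cuts and tags accessible DNA, of haematopoietic stem cells (HSCs) from wild type C57BL/6 male mice aged 8 weeks, with 2 libraries of CD93+ HSCs (CD93-positive) and 2 of CD93- HSCs (CD93-negative). All cells were sorted from bone marrow as lineage-negative, Sca-1-positive and Kit-positive cells that lacked CD34, Flt3 and CD48 and carried Slam1, and were then split by surface CD93, a lectin-like receptor. Femora and tibiae were pooled, and no label ties a library to mice of its own, so the spread between libraries of a group, and any p from it, may be technical. The libraries are bulk, so fewer cells with an open site and a less open site in each cell cannot be told apart.

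The proteasome is the protease complex that degrades proteins tagged with ubiquitin. Its barrel-shaped core has outer rings of alpha subunits (Psma genes), which gate entry, and inner rings of beta subunits (Psmb genes), some of which cut peptide bonds, and a regulatory particle of ATPases (Psmc genes) and other subunits (Psmd genes) binds, unfolds and feeds the substrate. In cells exposed to interferon gamma the catalytic subunits encoded by Psmb5, Psmb6 and Psmb7 are replaced by those of Psmb8, Psmb9 and Psmb10, forming the immunoproteasome. HSCs are known for a low rate of protein synthesis and for their sensitivity to misfolded protein.

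The promoters of 6 genes described below are printed. Psma2 and Psmd6 were the proteasome genes listed in a CD93-positive library, Psmc6 had the highest score of any proteasome subunit gene in a CD93-negative library, and Psmb9, Psmb8 and Psmb10 are the immunoproteasome genes, of which the first was listed and the others were not. Each sequence is the 250 bases before the RefSeq start, read 5′ to 3′ along the gene's strand, from RefSeq on GRCm38.p6. Capitals mark matches, on either strand, to the motifs named below.
Psma2: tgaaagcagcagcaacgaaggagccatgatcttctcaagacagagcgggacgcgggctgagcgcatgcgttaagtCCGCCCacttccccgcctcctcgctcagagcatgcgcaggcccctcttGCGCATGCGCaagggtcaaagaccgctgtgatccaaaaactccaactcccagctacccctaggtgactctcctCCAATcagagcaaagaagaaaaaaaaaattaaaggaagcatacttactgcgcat
Psmd6: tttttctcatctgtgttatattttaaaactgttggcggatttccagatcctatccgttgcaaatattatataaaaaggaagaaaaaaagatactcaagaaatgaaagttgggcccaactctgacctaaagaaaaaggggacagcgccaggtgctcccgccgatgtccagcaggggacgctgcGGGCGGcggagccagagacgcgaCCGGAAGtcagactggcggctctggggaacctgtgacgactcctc
Psmc6: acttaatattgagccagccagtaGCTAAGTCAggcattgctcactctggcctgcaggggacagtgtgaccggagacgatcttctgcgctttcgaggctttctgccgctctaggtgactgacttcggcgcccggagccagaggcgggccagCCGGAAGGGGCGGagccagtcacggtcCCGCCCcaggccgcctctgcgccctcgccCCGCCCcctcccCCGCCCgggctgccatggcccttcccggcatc
Psmb9: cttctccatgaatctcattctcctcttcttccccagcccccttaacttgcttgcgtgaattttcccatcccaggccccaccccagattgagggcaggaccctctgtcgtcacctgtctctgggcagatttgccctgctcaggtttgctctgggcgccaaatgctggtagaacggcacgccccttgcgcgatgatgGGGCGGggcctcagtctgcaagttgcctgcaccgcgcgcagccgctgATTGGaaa
Psmb8: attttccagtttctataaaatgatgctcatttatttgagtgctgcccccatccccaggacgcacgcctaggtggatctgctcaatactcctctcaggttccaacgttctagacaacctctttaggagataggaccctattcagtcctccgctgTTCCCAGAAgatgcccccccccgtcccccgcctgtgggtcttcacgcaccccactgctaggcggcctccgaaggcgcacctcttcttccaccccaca
Psmb10: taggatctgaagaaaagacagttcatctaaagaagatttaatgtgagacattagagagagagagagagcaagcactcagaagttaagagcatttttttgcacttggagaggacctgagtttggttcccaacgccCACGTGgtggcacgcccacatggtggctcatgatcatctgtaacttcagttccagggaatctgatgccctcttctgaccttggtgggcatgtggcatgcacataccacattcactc
These windows lie at chr13:14612992-14613241 (plus strand), chr14:14120946-14121195 (minus strand), chr14:45329574-45329823 (plus strand), chr17:34187331-34187580 (minus strand), chr17:34197945-34198194 (plus strand) and chr8:105938393-105938642 (minus strand).

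Fewer proteasome genes had a summit in each CD93-positive list than in either CD93-negative list, and the CD93-positive lists were also shorter. A gene was called listed when the library's peak list held a summit, the base of highest signal in a peak, within 1000 bp of either gene end. In CD93-positive replicate 1, 0 of 51 genes were listed, where 0.0183% of all protein-coding genes were. In CD93-positive replicate 2, 2 of 51 were listed (3.92%, exact 95% interval 0.478 to 13.5), where 3.22% of all genes were. In CD93-negative replicate 1, 37 of 51 were listed (72.5%, 58.3 to 84.1), where 32.2% of all genes were. In CD93-negative replicate 2, 17 of 51 were listed (33.3%, 20.8 to 47.9), where 12.9% of all genes were. The share of proteasome genes was thus near that of all genes in the CD93-positive libraries and 2.26 and 2.59 times that of the other protein-coding genes in CD93-negative replicates 1 and 2.

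The mean number of listed proteasome genes was 1 ± 1.41 in CD93-positive and 27 ± 14.1 in CD93-negative libraries (SD, n = 2 each), a difference of -26. The groups did not overlap, but an exact permutation test (two-sided) gave p = 0.33, the smallest value that 2 libraries against 2 allow. Read depth is unknown, and list length moved with the group. CD93-positive replicate 1 had 21 summits and replicate 2 had 711, while CD93-negative replicate 1 had 7989 and replicate 2 had 2755. The difference was -16 without CD93-negative replicate 1 and -25 without CD93-positive replicate 1, whose list was the shortest. With the 3 longer lists held to 711 summits, a setting chosen after the data were seen, the difference was -1.5 and the groups no longer separated (exact permutation p = 0.667).

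At equal list lengths the libraries with enough summits listed similar numbers of proteasome genes. With the 711 highest-scoring summits of each list, 2 of 51 were listed in CD93-positive replicate 2 (3.92%, where 3.22% of all genes were), 2 in CD93-negative replicate 1 (3.92%, where 3.28% were) and 3 in CD93-negative replicate 2 (5.88%, where 3.38% were). The difference, CD93-positive minus the CD93-negative mean of 2.5 ± 0.707 (SD, n = 2), was -0.5 genes, less than the spread between the CD93-negative libraries, and with 1 CD93-positive library it had no test. These shares rest on 2 or 3 genes, and too few were listed to show whether proteasome genes differed from other genes at that length. Without 5 genes that are not constitutive subunits, a setting added after seeing the data, the sign turned and the difference was 0.5. Among these is Psme3ip1, which gave 1 gene to each CD93-negative count. The genes were only partly the same ones. They were Psma2 and Psmd6 in CD93-positive replicate 2, Psmc6 and Psme3ip1 in CD93-negative replicate 1, and Psma2, Psma5 and Psme3ip1 in CD93-negative replicate 2. Over all protein-coding genes at that length, 51.7% of those listed in CD93-positive replicate 2 were also found in CD93-negative replicate 1. For CD93-negative replicate 2 this share was 47.7%. Between the CD93-negative libraries, 53.6% of the genes of the first were also in the second. With 2 or 3 genes in each list, a difference from these shares could not be shown.

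Further down the CD93-negative lists more proteasome genes were listed. With 2755 summits from each, 13 of 51 proteasome genes (25.5%) were listed in CD93-negative replicate 1 and 17 of 51 (33.3%) in CD93-negative replicate 2, where 12.9% of all genes were listed in each. The libraries had 8 genes in common at that length, or 61.5% of the genes listed in replicate 1 and 47.1% of those in replicate 2, where 1823 genes were common over all protein-coding genes, or 64.4% of those listed in either library. The 8 were Psma2, Psma5, Psmc6, Psmd3, Psmd12, Psmd5, Psmg4 and Psme3ip1. When the full list of CD93-negative replicate 1 was split by score into 4 parts of equal size, 8 of the 37 listed proteasome genes had their best summit in the highest-scoring part, 12 and 11 in the middle parts and 6 in the lowest. The highest part thus held 21.6% of the listed proteasome genes, against 29.2% of all listed genes.

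**Figure D1:**
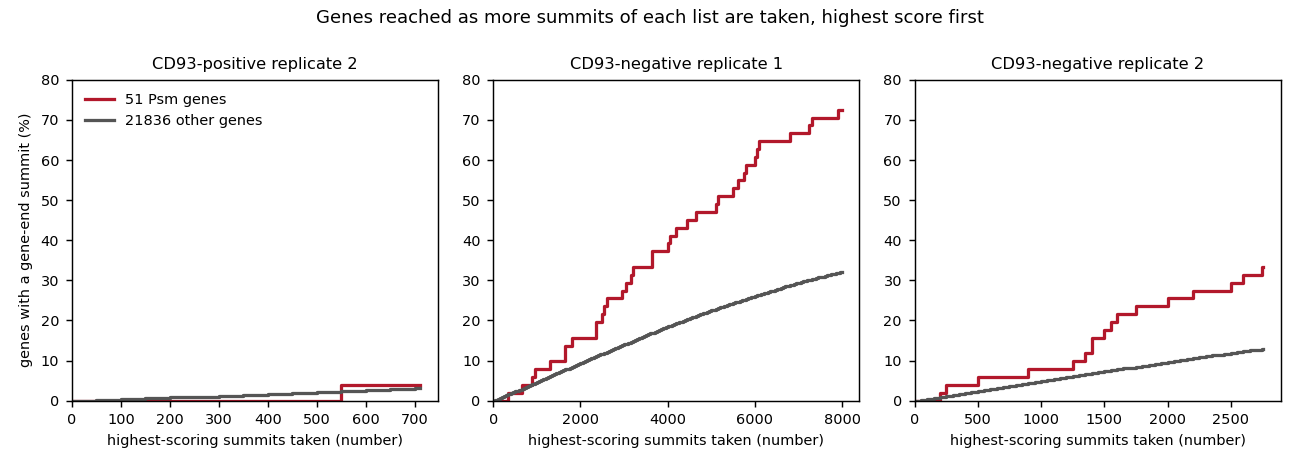
Share of the 51 Psm genes (red) and of the 21836 other protein-coding genes (grey) with a summit within 1000 bp of a gene end (vertical axis, percent) as more summits of each list are taken from the highest score down (horizontal axis, number of summits, scaled separately for each library). The lines end at 3.92% and 3.21% in CD93-positive replicate 2, at 72.5% and 32.1% in CD93-negative replicate 1 and at 33.3% and 12.9% in CD93-negative replicate 2.

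Of the 51 genes, 1 was listed in 3 libraries, 1 in CD93-positive replicate 2 and CD93-negative replicate 1, 16 in both CD93-negative libraries alone, 19 in CD93-negative replicate 1 alone and 14 in none. Over all protein-coding genes 9.95% were listed in both CD93-negative and no CD93-positive library, against 31.4% of the proteasome genes. The 19 are 37.3% of the proteasome genes, where 19.0% of all genes had that pattern, and the 14 are 27.5%, where 67.6% of all genes were listed in none. All 17 proteasome genes of CD93-negative replicate 2 were also in CD93-negative replicate 1, as were 2787 of the 2829 genes listed there over all protein-coding genes.

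**Figure D2:**
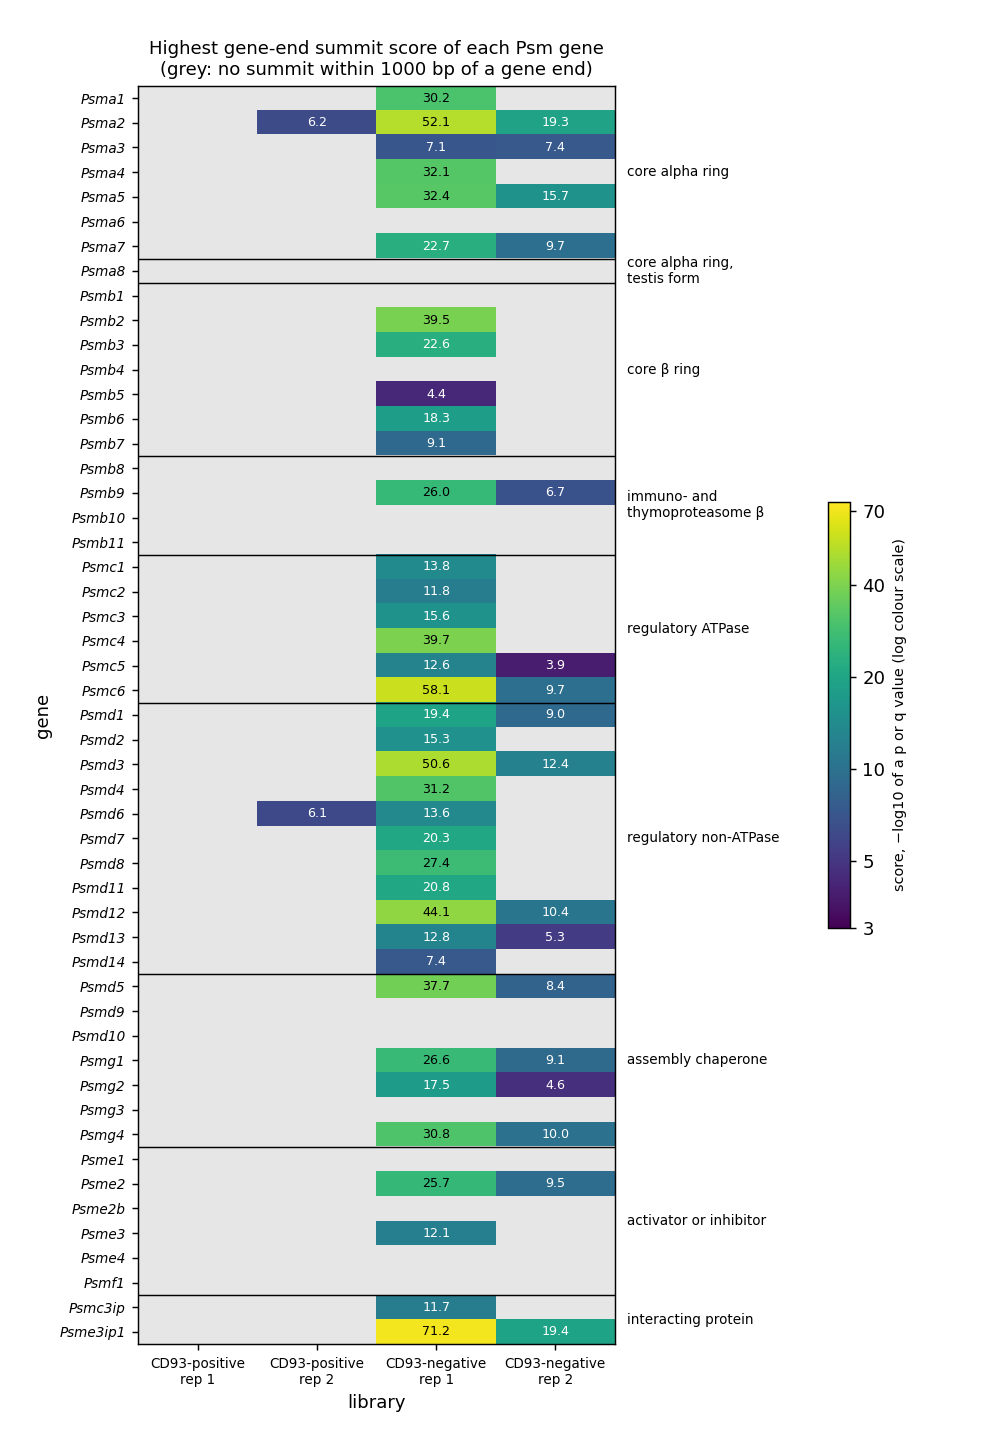
Score of the highest-scoring gene-end summit of each of the 51 Psm genes (rows, grouped by role) in the 4 libraries (columns). Colour follows the score on a log scale and the number in each cell is the deposited score, read as a −log10 value of p or of q. Grey cells had no summit within 1000 bp of a gene end, as in the whole column of CD93-positive replicate 1, and the cells of the ATPase and other regulatory genes are all filled in CD93-negative replicate 1.

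Psma2 was the single proteasome gene listed in 3 libraries, CD93-positive replicate 2 and both CD93-negative libraries. Over all protein-coding genes 607, or 2.77%, had that pattern, against 1.96% of the proteasome genes, so Psma2 was not alone in it. Psma2 encodes an alpha subunit of the core (gene ID 19166, plus strand of chromosome 13, 14613242 to 14625673). Its highest summit scored 6.25 in CD93-positive replicate 2 and was not listed in CD93-positive replicate 1, against 52.1 and 19.3 in CD93-negative replicates 1 and 2. Scores were read as −log10 p or q values, set against the background of the same library and not scaled between libraries, so the place in the list is given beside them. The summit ranked 510 of 711 in CD93-positive replicate 2, in the weaker part of that list, and 854 of 7989 and 202 of 2755 in CD93-negative replicates 1 and 2, near the top of those lists. It lay 68 bp upstream of the start in CD93-positive replicate 2, and 149 and 146 bp upstream in CD93-negative replicates 1 and 2, all within the printed sequence. The neighbouring gene Mrpl32, which encodes a protein of the mitochondrial ribosome, shared these summits. A gene end of Mrpl32, its start or its far end, lay within 1000 bp of each.

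Psmd6, a subunit of the lid of the regulatory particle (gene ID 66413, minus strand of chromosome 14, 14112185 to 14120945), was listed in CD93-positive replicate 2 but not in the longer list of CD93-negative replicate 2. Its summit scored 6.12 in CD93-positive replicate 2, where it ranked 521 of 711, against 13.6 in CD93-negative replicate 1, where it ranked 5564 of 7989. Both summits lay inside the gene, 188 bp from the start in CD93-positive replicate 2 and 26 bp from it in CD93-negative replicate 1. In CD93-negative replicate 2 the nearest summit on the chromosome was 2128466 bp from the gene. Of all protein-coding genes 93, or 0.425%, had the same pattern, so Psmd6 was not alone in it.

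Among the constitutive alpha genes, CD93-positive replicate 1 listed 0 of 7, where 0.0183% of all genes were listed. CD93-positive replicate 2 listed Psma2 alone, where 3.22% of all genes were. CD93-negative replicate 1 listed 6 of 7, against 32.2% of all genes, and CD93-negative replicate 2 listed 4 of 7, against 12.9%. The counts rose with list length, which moved with the group. Psma5 scored 32.4 in the longer of the CD93-negative lists and 15.7 in the shorter, and Psma7 scored 22.7 and 9.73. Psma1 and Psma4 were listed in CD93-negative replicate 1 alone, with scores of 30.2 and 32.1. These were above the median of that list, 20.6. Psma3 had gene-end summits of 7.08 in CD93-negative replicate 1 and 7.38 in replicate 2, and higher ones at a start inside the gene, given below with the positions. The summit of Psma3 in CD93-negative replicate 1 was also the farthest from a gene end that the window took in, at 934 bp, while the nearest left outside lay 1580 bp from Psmb1, a beta subunit gene, and 32 bp from Tbp, the gene of the TATA-binding protein (score 19.7). In the shorter lists no summit lay near the limit of the window. The farthest inside and the nearest outside were 188 bp (Psmd6) and 19855 bp (Psma3) in CD93-positive replicate 2, and 459 bp (Psme2) and 10033 bp (Psme1) in CD93-negative replicate 2.

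Psma6 was not listed by the rule in any library, but the rule reads only the outer ends of a gene. RefSeq gives Psma6 a further start at 55398825 on chromosome 12, inside the gene, and CD93-negative replicate 1 had a summit of score 27.8 at 87 bp upstream of it. No other unlisted proteasome gene with a start in the RefSeq promoter table gained a summit when windows of 1000 bp were drawn around starts in place of gene ends. By starts, the listed genes numbered 0 and 2 of 43 in CD93-positive replicates 1 and 2 (where 0.0172% and 3.6% of all genes with a start were listed), and 32 and 15 of 43 in CD93-negative replicates 1 and 2 (where 34.9% and 14.1% were).

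The constitutive beta genes were listed in CD93-negative replicate 1 alone. Each CD93-positive library listed 0 of 7, where the share of all genes was 0.0183% for replicate 1 and 3.22% for replicate 2. CD93-negative replicate 1 listed 5 of 7, against 32.2% of all genes, and CD93-negative replicate 2 listed 0 of 7, against 12.9%. Psmb2 had the highest score, 39.5, followed by Psmb3 with 22.6. The genes of the catalytic subunits that the immunoproteasome replaces had lower scores, 18.3 for Psmb6, 9.06 for Psmb7 and 4.36 for Psmb5, whose subunit has the chymotrypsin-like activity. The Psmb5 summit ranked 7897 of 7989, the lowest of any proteasome gene in that library. Psmb1 and Psmb4 were not listed in any library. Whether the alpha and beta genes differ in CD93-negative replicate 2 beyond chance was not tested.

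Of the 3 immunoproteasome genes, 0 were listed in either CD93-positive library, where 0.0183% and 3.22% of all genes were in replicates 1 and 2. Psmb9 alone was listed in both CD93-negative libraries. This made 33.3% of the 3 genes in each, where 32.2% and 12.9% of all genes were listed in replicates 1 and 2. With 3 genes, a difference from all genes could not be shown. In CD93-negative replicate 1 the Psmb9 summit scored 26.0 and ranked 3107 of 7989, and in CD93-negative replicate 2 it scored 6.74 and ranked 2165 of 2755. It lay 145 and 41 bp upstream of the Psmb9 start in CD93-negative replicates 1 and 2, in the short stretch between Psmb9 and Tap1, a peptide transporter gene whose near end was 81 bp from the summit of replicate 1. The same summits were therefore counted for Tap1. The summit nearest to Psmb8, in the same cluster, was this one, 10720 and 10824 bp away in CD93-negative replicates 1 and 2. For Psmb10, on chromosome 8, the nearest summits were 35340 and 35322 bp away, next to Pskh1. Psmb11, whose subunit belongs to the proteasome of the thymic cortex, and Psma8, the testis form of an alpha subunit, were also not listed in any library.

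Of the 17 genes of the regulatory particle, 0 were listed in CD93-positive replicate 1, where 0.0183% of all genes were. In CD93-positive replicate 2, 1 was listed, Psmd6, where 3.22% of all genes were. All 17 were listed in CD93-negative replicate 1, where 32.2% of all genes were, and 6 in CD93-negative replicate 2, where 12.9% were. Among the ATPases, Psmc6 had the highest score of any subunit gene in CD93-negative replicate 1, 58.1 (rank 617 of 7989), but ranked 1391 of 2755 in CD93-negative replicate 2 with 9.73. Psmc4, with the next highest ATPase score of 39.7, was not listed in CD93-negative replicate 2. Psmc5, with 12.6 and 3.86 in CD93-negative replicates 1 and 2, was the single ATPase besides Psmc6 listed in both. Psmc1, Psmc2 and Psmc3 scored 13.8, 11.8 and 15.6 in CD93-negative replicate 1.

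Among the other regulatory genes, those of the lid subunits Psmd3 and Psmd12 had the highest scores, 50.6 and 44.1 in CD93-negative replicate 1 and 12.4 and 10.4 in CD93-negative replicate 2. Psmd1, a scaffold subunit of the base, scored 19.4 and 8.99, and Psmd13, of the lid, 12.8 and 5.33, in CD93-negative replicates 1 and 2. The ubiquitin receptor gene Psmd4 scored 31.2 in CD93-negative replicate 1 and was not listed in CD93-negative replicate 2. Psmd14, the deubiquitinase that strips ubiquitin from the substrate, had the lowest score of the regulatory genes in CD93-negative replicate 1, 7.37. The remaining regulatory genes, Psmd2, Psmd7, Psmd8 and Psmd11, scored 15.3 to 27.4 there and were in no other library.

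The assembly chaperone genes, whose products help to build the complex and are not part of it, were the same genes in both CD93-negative libraries. There were 4 of 7, Psmd5 with scores of 37.7 and 8.37, Psmg1 with 26.6 and 9.14, Psmg2 with 17.5 and 4.63 and Psmg4 with 30.8 and 9.95 in CD93-negative replicates 1 and 2. Psmg1 acts with Psmg2, and Psmg3 with Psmg4, in building the alpha ring. All 7 were unlisted in both CD93-positive libraries, where 0.0183% and 3.22% of all genes were listed in replicates 1 and 2. In CD93-negative replicates 1 and 2, 32.2% and 12.9% of all genes were. Over all protein-coding genes, 2787 of the 2829 listed in CD93-negative replicate 2 were also in replicate 1. Having the same genes in both was thus not particular to the chaperones. Psmg3 was not listed in any library, nor were Psmd9 and Psmd10, which help to assemble the ATPases.

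Of the genes of activators and the inhibitor, Psme2, a subunit of an interferon-induced activator, scored 25.7 in CD93-negative replicate 1 and 9.50 in CD93-negative replicate 2. Its summits lay 578 and 459 bp upstream of the gene, nearer to Rnf31, a ubiquitin ligase gene that lies 34 and 153 bp from them. Psme1, its partner subunit, was not listed, and its nearest summits in both CD93-negative libraries were those of Psme2. Psme3, a nuclear activator, scored 12.1 in CD93-negative replicate 1 alone. Psme4, Psmf1 and Psme2b were listed in no library. The symbol rule also took in the genes of binding partners that are no part of the proteasome. Psme3ip1, whose product binds the Psme3 protein, had the highest score of all 51 in CD93-negative replicates 1 and 2 (71.2 and 19.4). Both of its summits also lay inside the gene LOC115486880 and within 1000 bp of an end of that gene and of Rspry1, so they may belong to another gene. Psmc3ip, a meiotic recombination factor, scored 11.7 in CD93-negative replicate 1. Without Psme3ip1 and Psmc3ip, 0 and 2 of 49 genes were listed in CD93-positive replicates 1 and 2, where 0.0183% and 3.22% of all genes were. In CD93-negative replicates 1 and 2, 35 and 16 of 49 were listed, where 32.2% and 12.9% of all genes were.

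Most listed summits with a known start lay close to it. In CD93-positive replicate 2, 2 of 2 lay within 250 bp of a RefSeq start. In CD93-negative replicate 1, 28 of 31 did (90.3%), with a median distance of 72 bp, against 84.3% and 76 bp for the other listed genes with a start. In CD93-negative replicate 2, 11 of 15 did (73.3%), with a median of 98 bp, against 79.3% and 121 bp. The exceptions in CD93-negative replicate 1 were Psma3, Psmd13 and Psme2. For Psma3 the start in the promoter table lies inside the gene, 6274 bp from that summit, and other summits lay 10 bp from this start in CD93-negative replicate 1 (score 26.7) and 260 bp from it in CD93-negative replicate 2 (score 10.6). Of 17 genes listed in both CD93-negative libraries, 14 had their summits within 250 bp of each other, and the distance ranged from 3 bp at Psma2 to 589 bp at Psma3, with a median of 70 bp. The summit also lay within 1000 bp of another gene's end for 13 of 37 listed proteasome genes in CD93-negative replicate 1 (35.1%) and 8 of 17 in CD93-negative replicate 2 (47.1%), where 32.3% and 38.5% of all listed genes shared theirs. Among those neighbours were Cep76 at Psmg2, Sirt3 at Psmd13, Ftsj3 at Psmc5 and Pcgf2 at Psmb3, so such a summit may belong to either gene.

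**Figure D3:**
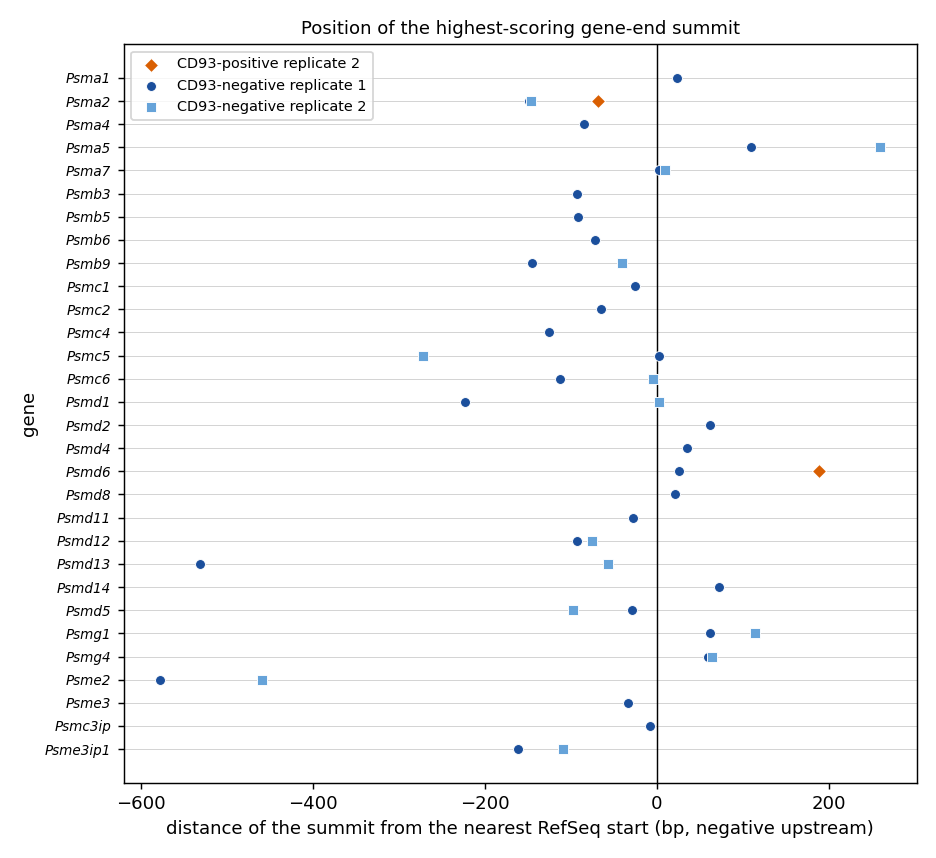
Distance in bp of the highest-scoring gene-end summit from the nearest RefSeq start (horizontal axis, negative upstream) for each listed Psm gene with a start within 1000 bp (rows), in CD93-positive replicate 2 (orange diamonds), CD93-negative replicate 1 (dark blue circles) and CD93-negative replicate 2 (light blue squares). Most points lie within 250 bp of the start, and the summits of Psme2 and the summit of Psmd13 in CD93-negative replicate 1 lie farther upstream, at 578, 459 and 531 bp.

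Promoter sequences were matched for 43 of the 51 genes, in 47 windows of 300 bases (250 before a start and 50 after it), the others being Psma8, Psmb1, Psmb2, Psmb7, Psmc3, Psmd3, Psmd7 and Psmg2. The ratio of observed to expected CpG had a median of 0.734 over the windows of proteasome genes, against 0.567 over all 21263 windows of protein-coding genes and 0.817 over the 7161 windows of genes listed in CD93-negative replicate 1. Windows of proteasome genes listed there had a median of 0.798 (0.0993 to 1.12) and those of genes listed in no library 0.544 (0.0904 to 0.806), so the ranges overlapped. Windows were sorted by their gene, here and for the motifs, not by a summit at that start. The value 0.0993 belonged to a Psme3ip1 start away from its summits. The Psma6 start with a summit (0.697) was counted with the unlisted. Among the unlisted, Psmb10 had 0.192, Psmb11 0.165 and Psme2b 0.0904, while Psme4 with 0.781 and Psmf1 with 0.806 were rich in CpG.

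The ETS motif matched a larger share of the windows of proteasome genes than of all windows. CCGGAAG was found on either strand in 17 of 47 windows (36.2%), and in 14 of the 34 windows of listed proteasome genes (41.2%), against 11.6% of all windows and 21.6% of windows of genes listed in CD93-negative replicate 1. In Psmd6 it began at position -45 from the start and in Psmc6 at -100, beside a GC box at -93. The interferon-stimulated response element, TTTC, NN and TTTC in a row, matched 5 windows (10.6%), those of Psmb3, Psmd4, Psmd9, Psme1 and Psmg4, against 3.35% of all windows and 2.61% of windows of genes listed in CD93-negative replicate 1, and none of those of Psmb8, Psmb9 or Psmb10. In all, 10 motifs were searched on both strands, these shares were not tested, and a match is a description, not a bound site.

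The other motifs were near the share of all windows or rare. The GC box of SP and KLF factors, GGGCGG, matched 53.2% of windows of proteasome genes, against 46.2% of all windows and 68.8% of windows of genes listed in CD93-negative replicate 1. The CCAAT box of NF-Y matched 34.0%, against 38.2%, and lay at -54 in Psma2 and at -8 in Psmb9. The core of the antioxidant response element, TGACNNNGC, through which Nfe2l1 induces proteasome genes when the proteasome is inhibited, matched 12.8%, against 13.0%, and lay in Psmc6 at -227 as GCTAAGTCA on the other strand. The palindrome of nuclear respiratory factor, the run in capitals at -127 in the Psma2 sequence, matched 2 windows (4.26%, against 1.33%), those of Psma2 and Psmg1. AAGATGGCG, the YY1 motif, matched 2 windows (4.26%, against 1.83%). The E-box CACGTG matched 10.6%, against 7.84%, and lay in Psmb10 at -116. The gamma-activated site TTCNNNGAA matched 6.38%, against 7.69%, and lay in Psmb8 at -97. TGACGTCA, the cyclic AMP response element, matched 0 windows, against 2.23%. Over windows of genes listed in CD93-negative replicate 1, the shares were 40.9% for the CCAAT box, 15.5% for the antioxidant element and 2.68% for the nuclear respiratory factor palindrome. They were 3.95% for YY1, 11.2% for the E-box, 6.17% for the gamma-activated site and 4.06% for the cyclic AMP element. Of 122 matches in the windows of proteasome genes, 2 pairs of different motifs overlapped, a GC box with an antioxidant response element in Psmd9 and with an ETS motif in Psme4.

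Other genes of the pathway, drawn from lists chosen with results of these data known, were also described, with no test. Of 29 matched partner genes, CD93-positive replicate 1 listed 0 and replicate 2 listed 5 (17.2%), where 0.0183% and 3.22% of all genes were listed. CD93-negative replicate 1 listed 26 of them (89.7%) and replicate 2 listed 15 (51.7%), where 32.2% and 12.9% of all genes were listed. The subunit Adrm1 and its partner deubiquitinase Uchl5, which sit on the regulatory particle, scored 8.78 and 14.7 in CD93-positive replicate 2. Adrm1 scored 49.8 in CD93-negative replicate 1 and 16.6 in CD93-negative replicate 2, and Uchl5 scored 53.5 and 11.9 there. Rad23b, which carries ubiquitinated proteins to the proteasome, scored 21.9 in CD93-positive replicate 2 and had scores of 99.4 and 27.4 in CD93-negative replicates 1 and 2. The other partner genes listed in CD93-positive replicate 2 were Zfand5, a proteasome activator (8.91), and Uba6, a ubiquitin-activating enzyme (11.1).

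The transcription factor genes Nfe2l1 and Nfe2l2 and Ngly1, the deglycosylase that activates the Nfe2l1 protein, were listed in both CD93-negative libraries and no CD93-positive one. They scored 46.7, 40.6 and 35.1 in CD93-negative replicate 1 and 17.4, 15.3 and 10.9 in CD93-negative replicate 2. The same held for the ubiquitin genes Ubb and Rps27a (41.2 and 14.2 in the longer list, 13.5 and 7.05 in the shorter), for Vcp, the segregase that unfolds ubiquitinated proteins (61.5 in the longer, 20.5 in the shorter), and for Ube3c and Txnl1 (61.9 and 31.2 in the longer list, 13.2 and 6.74 in the shorter). Of the other 5 shuttle factor genes besides Rad23b, all were listed in CD93-negative replicate 1 and 0 in CD93-negative replicate 2. Pomp, the maturation factor of the core, Uba1 and Ecpas were listed in no library.

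Antigen processing genes, which use the peptides the proteasome makes, numbered 0 of 12 in CD93-positive replicate 1 and 1 of 12 in replicate 2, where 0.0183% and 3.22% of all genes were listed. CD93-negative replicate 1 listed 10 of 12 and replicate 2 listed 6, where 32.2% and 12.9% of all genes were. Calr, a chaperone of the endoplasmic reticulum, was the gene listed in CD93-positive replicate 2 (10.1), and scored 92.5 in CD93-negative replicate 1 and 14.1 in CD93-negative replicate 2. B2m, H2-D1, Irf1, Pdia3 and Tap1 were listed in both CD93-negative libraries alone, scoring between 23.7 and 57.8 in the longer list and between 4.46 and 8.73 in the shorter. Tap2 and Nlrc5 were listed in none.

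Few markers of cell identity had a summit at a gene end. Of 12 HSC markers, 0 were listed in either CD93-positive library, and 2, Tal1 and Lyl1, in CD93-negative replicate 1 and 0 in CD93-negative replicate 2, and the defining genes Procr, Mecom, Hlf and Slamf1 were in none. Of 21 markers of endothelial, lymphoid, myeloid, erythroid, megakaryocytic and stromal cells, 0 were listed in any library. The shares of all genes were 0.0183% and 3.22% in CD93-positive replicates 1 and 2, so that 0 of these few genes is near the background there, while CD93-negative replicate 1 listed 32.2% of all genes and replicate 2 listed 12.9%. The cell type of the label therefore could not be checked by such sites.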

How the data were processed

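Each library gave 1 deposited list of peak summits. The submitters' processing notes name Bowtie2 (an aligner), MACS2 (a peak caller) and mm10; versions, filters and thresholds are not stated in the sources used. The deposited scores were read as −log10 values, of p or of q. Read depth is unknown. Summit names carry other replicate numbers than the titles, which were followed; the numbers were not taken to pair libraries.

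Genes, ends and symbols came from RefSeq (GRCm38.p6). The highest-scoring summit within 1000 bp of either gene end was taken for each gene and library; the assignment was tested on simulated data. Group means were compared by exact permutation over libraries. Intervals are exact Clopper-Pearson intervals that treat genes as independent and cover counting error only. The members and gene lists, and the printed promoters, were chosen with earlier results of these data known. All members were accounted for; the naming rule took those listed in CD93-positive replicate 2, the immunoproteasome and thymoproteasome genes, and the 5 highest and 3 lowest of the rest by score in CD93-negative replicate 1, and values of others were added by role after they were seen. Of 30 partner genes, Paaf1 was not matched, and some that the naming rule took are counted but not reported singly here. Python 3.11.15, numpy 2.4.6, pandas 2.3.3, scipy 1.17.1 and matplotlib 3.10.9 were used.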

Additional observations from a re-analysis of the deposited data

How the results depend on the processing

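The difference in listed proteasome genes between the groups kept its direction under every alternative run, between -36 and -16 on leaving out each library, -24 and -26.5 with windows of 500 and 2500 bp, -24.5 and -19 with scores of at least 5 and 10, and -22.5 by starts, and was smallest, -1.5 with overlapping groups (exact permutation p = 0.667), with the 3 longer lists held to 711 summits, but no such design of 2 libraries against 2 can give a p below 0.33. With the replicate number as a block, the difference stayed -26 and the exact permutation p was 0.5, the smallest that this pairing allows; it changed no call. The share of proteasome genes minus that of other genes differed by -30.1 percentage points between the groups (exact permutation p = 0.33), between -40.1 and -20.1 on leaving out each library, and by -5.65 points against genes listed in any library, of which CD93-negative replicate 1 listed 7042 of 7087. List length moved with the group here too. Held to 711 summits, the gap was 0.707 points in CD93-positive replicate 2. It was 0.647 and 2.51 points in CD93-negative replicates 1 and 2. Adding a minimum score of 10 to the cut at 711 gave -2.5, with 0 proteasome genes in CD93-positive replicate 2. That value does not compare lists of equal length, and scores are not scaled between libraries. The median score of CD93-positive replicate 2 was 8.26, so the minimum removed most of its summits. It removed none of the 711 in either CD93-negative library. At 711 summits the difference of -0.5 genes became 0.5 without 5 genes that are not constitutive subunits, a setting added after seeing the data. The difference was -1 without CD93-negative replicate 1 and 0 without CD93-negative replicate 2. Leaving out CD93-positive replicate 2 leaves no comparison. With a score of at least 10, 5 proteasome genes were listed in CD93-negative replicate 2 in place of 17. Read depth is unknown, so an unlisted gene is not shown to be closed.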
